A study of Equus asinus with 2 samples.

Results

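Genes that act at the onset of meiosis and oogenesis were followed in 2 single-cell RNA libraries of fetal donkey (Equus asinus). The set lists 36 genes, listed by symbol for their known roles, with no limit on their values. Earlier results of these data were known when they were chosen. Of these, 35 were measured among 38517 deposited features, 32 under their own symbol and 3 (DMC1, HSF2BP and PSMC3IP) through a RefSeq gene identifier. PRDM9 had no match and was not analysed here. The first library came from a fetus or fetuses at 4 weeks of gestation and held gonad together with mesonephros, the embryonic kidney beside it. The second came from 8 weeks of gestation and from tissue labelled as ovary. Both were taken fresh at slaughter, and the labels name germ cells as the cell type and no treatment. The number of fetuses is not given, each stage is 1 library, and stage, tissue, animal and library cannot be told apart.

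Meiosis begins in the fetal ovary, when germ cells leave mitotic division, and in the testis only after birth. Sister chromatids are then held by meiotic forms of cohesin, breaks are cut into the DNA, and the synaptonemal complex joins homologous chromosomes while recombination proteins repair the breaks. A separate group of transcription factors sets up the later programme of the oocyte.

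The libraries held 8938 and 14593 barcodes with 122341903 and 155128130 UMIs (unique molecular identifiers, each standing for 1 captured transcript). Germ cells were gated on other genes than the 35 studied: at least 4 of 17 measured germ cell markers with a UMI and at least 5 marker UMIs per 10000. This took 600 of 8912 kept cells at 4 weeks, 6.73% (95% interval 6.22 to 7.27), and 1039 of 14590 at 8 weeks, 7.12% (6.71 to 7.55). The somatic background was the 7305 and 12209 cells outside the gate with at most 1 germ cell marker. The gate fixes the levels of its own markers, which are given only to describe the gated cells. Of these, POU5F1, a pluripotency factor of early germ cells, stood at 681 and 367 CPM (UMIs of the gene per 1000000 UMIs) in the gated cells and at 2.88 and 4.53 CPM in the background. DAZL, DDX4 and MAEL, also gate markers and typical of later germ cells, stood at 27.2, 55.9 and 23.2 CPM in gated cells at 4 weeks and at 101, 90.5 and 86.2 CPM at 8 weeks.

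The tissue label of the 8-week library did not match its markers. SRY, the testis-determining gene of the Y chromosome, had 427 UMIs at 4 weeks and 1495 at 8 weeks, or 3.49 and 9.64 CPM over all kept cells. AMH, a hormone of Sertoli cells in the fetal testis, stood at 420 and 514 CPM over all cells and at 2938 and 4179 CPM in cells gated as Sertoli. FOXL2, a factor of ovarian granulosa cells, stood at 1.03 and 1.55 CPM, and 0 cells passed the granulosa gate in either library. The second library is therefore called the 8-week library below, and its values are not described as those of an ovary.

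Many gated germ cells also carried somatic transcripts. Of the gated cells, 183 at 4 weeks and 330 at 8 weeks also passed the gate of another cell class, most often Sertoli (125 and 187). They held 50.6% and 51.0% of the UMIs of the germ gate, with a median of 37539 and 27636 UMIs, against 13889 and 9829 in the 417 and 709 gated cells of a single class. All 9 Sertoli markers had UMIs in the germ gate, with a summed level of 1154 and 1087 CPM against 692 and 745 CPM in the background, and of 225 and 347 CPM in the gated cells of a single class. The levels given first below are those of the whole gate, and values without the mixed barcodes follow where they differ in a call. The libraries shared 38 barcode sequences, of which 1 and 3 lay in the germ gates.

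With 1 library per stage no test was possible and no p-value is given. Intervals are exact at 95%. Those of levels and ratios cover the error of counting UMIs, and those of shares of cells the error of counting cells. Both leave out any spread between animals. Intervals of levels and ratios also take UMIs as independent, even where they sit together in few cells. Intervals of medians over genes are order-statistic intervals over the listed genes and are not counting error. UMIs are not divided by gene length, so a level is a share of the UMIs of those cells. A germ cell level was called when it stood at least 4-fold over the somatic background of the same library, for features with at least 20 UMIs in that library.

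At 4 weeks 15 of the 33 genes that passed the filter were called, where 6.12% of all 22795 features were. At 8 weeks 19 of 34 were called, where 8.51% of all 22409 features were. The filter counts UMIs of all kept cells, germ cells included, so some genes passed it mainly through the germ gate. Germ cells held 42 of the 47 UMIs of LHX8 and 67 of the 77 of TEX12 at 4 weeks, and 42 of the 56 of SPO11 at 8 weeks. For such genes the filter and the call are not independent, and counts of called genes here and below carry this limit. The genes called in both were 14: MEIOSIN, MEIOC, SMC1B, RAD21L1, STAG3, TEX12, HORMAD1, IHO1, SPATA22, MSH4, TEX15, SOHLH1, SOHLH2 and LHX8. DMC1 was called at 4 weeks only. SYCE1, SYCE3, SPO11, MEIOB and FIGLA were called at 8 weeks only, and the other 15 in neither. The median log2 ratio of germ cells over background was 1.55 (0.45 to 3.0) at 4 weeks and 2.23 (1.47 to 4.27) at 8 weeks, against -0.04 and 0.01 over all features. NOBOX in both libraries and SPO11 at 4 weeks fell under the filter. In 31 of the 35 genes the germ cell level lay above the background in both libraries. No share over all features is given for that count, so it cannot be read as a trait of the set. It takes in NOBOX and SPO11 without the filter, and ratios whose interval includes 1, such as FIGLA at 4 weeks, 1.08 (0.602 to 1.83). The plot of levels in germ cells and background shows the levels of each gene by role.

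**Figure D1:**
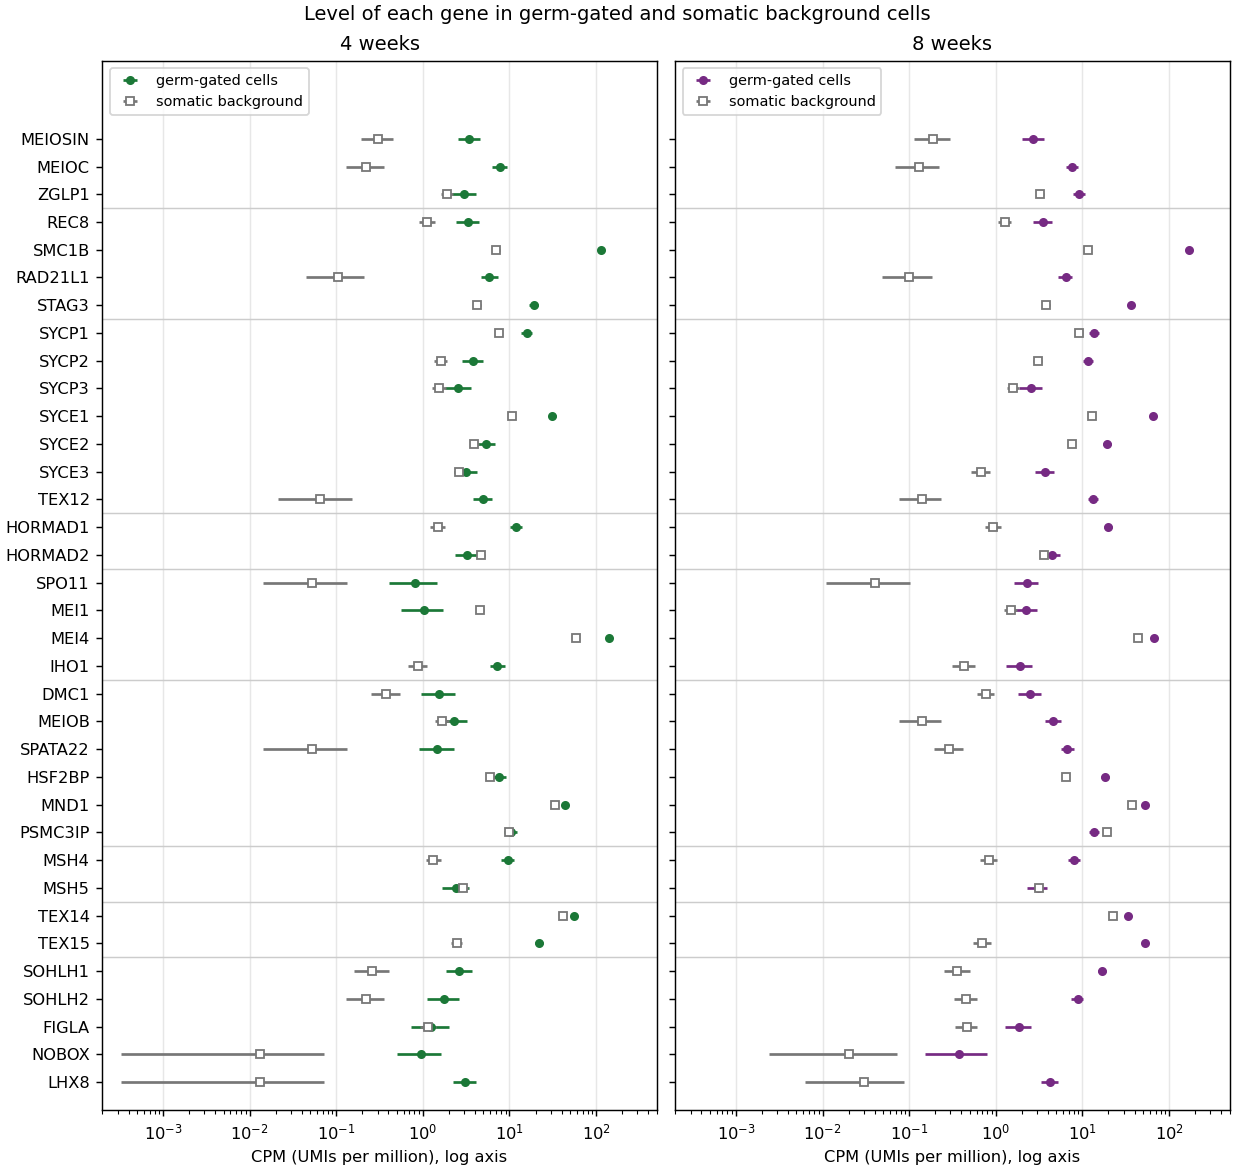
Level of each of the 35 genes in germ-gated cells (filled circles) and in the somatic background (open squares) of the 4-week library (left) and the 8-week library (right), in CPM on a log axis, with exact 95% counting intervals as bars and horizontal lines between roles. SMC1B and MEI4 had the highest germ cell levels (113 and 142 CPM at 4 weeks), and LHX8 had the lowest background of the called genes in both libraries.

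Among the regulators of meiotic entry, MEIOSIN, a transcription factor that works with STRA8, stood at 3.44 CPM (47 UMIs) in germ cells at 4 weeks and 2.71 CPM (50 UMIs) at 8 weeks. Its background was 0.301 and 0.190 CPM, which gave ratios of 11.4 (6.79 to 19.7) and 14.2 (8.24 to 25.6). MEIOC, which with YTHDC2 adjusts the transcripts of germ cells entering meiosis, stood at 7.68 and 7.64 CPM over backgrounds of 0.223 and 0.130 CPM. Its ratios were 34.5 (20.6 to 61.5) and 58.7 (33.2 to 113). Both genes were thus present at low levels in both libraries, and neither was at a higher level at 8 weeks. ZGLP1, a zinc finger factor that starts the oogenic programme in mouse germ cells, stood at 3.0 CPM over a background of 1.90 CPM at 4 weeks and at 9.21 over 3.25 CPM at 8 weeks. It was not called in the whole gate, but at 8 weeks it was at 13.2 CPM and called in the gated cells of a single class.

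Of the 4 meiotic cohesin genes, 3 were called in both libraries. SMC1B, the meiotic form of the SMC1 subunit, stood at 113 CPM (107 to 118; 1538 UMIs) in germ cells at 4 weeks and at 171 CPM (165 to 177; 3151 UMIs) at 8 weeks. Its background of 7.06 and 11.5 CPM gave ratios of 15.9 (14.4 to 17.6) and 14.9 (13.9 to 15.9). STAG3, the meiotic form of the STAG subunit, stood at 19.0 and 36.6 CPM over 4.24 and 3.85 CPM, with ratios of 4.48 (3.79 to 5.29) and 9.51 (8.37 to 10.8). Against endothelial cells, where STAG3 stood at 5.87 CPM, the 4-week ratio fell below 4-fold. RAD21L1, a kleisin found only in meiotic cohesin, stood at 5.85 and 6.40 CPM over 0.105 and 0.10 CPM, with ratios of 55.9 (27.0 to 134) and 63.8 (33.5 to 137). REC8, the other meiotic kleisin, stood at 3.29 and 3.52 CPM over 1.13 and 1.27 CPM and was not called in either library.

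Set beside their mitotic counterparts, these subunits were not equally represented. SMC1B gave 52.7% of the summed SMC1B and SMC1A level in germ cells at 4 weeks and 67.0% at 8 weeks, against 6.89% and 11.8% in the background. STAG3 gave 6.98% and 18.6% of its sum with STAG1, and 12.3% and 34.4% of its sum with STAG2, against 1.33% to 3.96% in the background. RAD21, the mitotic kleisin, stood at 159 and 151 CPM in germ cells, and REC8 gave 2.02% and 2.28% of its sum with RAD21. RAD21L1 gave 3.54% and 4.06%. By this measure the meiotic form made up the larger share of the SMC1 level of germ cells and a small share of their kleisin level. These shares come from UMIs without correction for length.

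Among the 7 genes of the synaptonemal complex, 1 was called at 4 weeks and 3 at 8 weeks. TEX12, a central element protein, stood at 4.90 CPM (67 UMIs) and 13.3 CPM (246 UMIs) in germ cells over backgrounds of 0.0655 and 0.140 CPM. Its ratios were 74.8 (30.5 to 238) and 95 (55.6 to 176), and endothelial cells held 0 UMIs of it in either library. SYCE1, another central element protein, stood at 31.2 CPM over 10.7 CPM at 4 weeks, a ratio of 2.93 (2.60 to 3.30), and at 65.4 over 13.1 CPM at 8 weeks, a ratio of 5.01 (4.62 to 5.42). In gated cells of a single class SYCE1 stood at 43.4 and 88.6 CPM and was called in both libraries.

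SYCE3, also of the central element, had nearly the same germ cell level in both libraries, 3.15 and 3.69 CPM. Its background was 2.63 CPM at 4 weeks and 0.671 CPM at 8 weeks, so the ratio was 1.19 (0.839 to 1.67) and then 5.49 (3.86 to 7.81). The call of SYCE3 at 8 weeks only therefore followed its background. Tubule cells, which are 821 cells of the 4-week library and 0 of the other, held SYCE3 at 5.25 CPM. SYCE2 stood at 5.34 and 19.4 CPM over 3.93 and 7.55 CPM and was not called.

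None of the 3 genes of the lateral elements and transverse filaments was called in the whole gate. SYCP3, which forms the lateral elements and is widely used to mark meiotic prophase, stood at 2.56 and 2.55 CPM in germ cells (35 and 47 UMIs) over 1.53 and 1.57 CPM, a ratio of 1.67 (1.11 to 2.46) and 1.62 (1.14 to 2.26). SYCP1, the transverse filament, stood at 15.7 and 13.7 CPM over 7.56 and 9.16 CPM. Endothelial cells of the 4-week library held SYCP1 at 19.3 CPM, above the germ cells. Of its 215 germ cell UMIs at 4 weeks, 60 came from 1 cell and 40.5% from 3 cells. SYCP2, the partner of SYCP3, stood at 3.8 over 1.6 CPM at 4 weeks and at 11.7 over 3.05 CPM at 8 weeks, a ratio of 3.84 (3.21 to 4.59). SYCP2 passed 4-fold at 8 weeks in gated cells of a single class, at 17.7 CPM.

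Of the HORMA-domain proteins of the chromosome axis, HORMAD1 stood at 11.9 and 19.7 CPM in germ cells over 1.48 and 0.932 CPM. Its ratios were 8.01 (6.26 to 10.3) and 21.2 (16.8 to 26.9). HORMAD2 stood at 3.22 and 4.44 CPM over 4.69 and 3.65 CPM, and in endothelial cells of the 4-week library at 9.41 CPM. The related axis genes thus differed, HORMAD1 being called in both libraries and HORMAD2 lying at or under the somatic level.

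The genes for making double-strand breaks were uneven. SPO11, which cuts the breaks, had 11 UMIs in 11 germ cells at 4 weeks (0.805 CPM, 0.402 to 1.44) and 42 UMIs in 40 germ cells at 8 weeks (2.28 CPM, 1.64 to 3.08). The background held 4 UMIs in each library, and the 8-week ratio was 56.8 (20.6 to 218). IHO1, a partner of HORMAD1 in the break machinery, stood at 7.24 over 0.878 CPM at 4 weeks and 1.90 over 0.431 CPM at 8 weeks. Its UMIs sat in few cells: 99 UMIs in 27 cells at 4 weeks, with 17 in 1 cell, and 35 UMIs in 16 cells at 8 weeks, of which 3 cells held 57.1%. MEI4, a further accessory of break formation, had high levels everywhere, 142 over 58.0 CPM and 67.3 over 44.1 CPM, and was called in neither library. MEI1, the remaining accessory, was 4.41-fold lower (2.59 to 8.16) in germ cells than in the background at 4 weeks, at 1.02 against 4.52 CPM. At this 4-fold limit 8.1% of all features were lower in germ cells at 4 weeks. At 8 weeks 0 of the genes were, where 7.09% of all features were. Tubule cells held MEI1 at 12.9 CPM, and at 8 weeks it stood at 2.22 over 1.48 CPM.

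Among the 6 genes of strand exchange, SPATA22 and MEIOB form a complex that binds single-stranded DNA at breaks. SPATA22 stood at 1.46 CPM (20 UMIs) at 4 weeks and 6.72 CPM (124 UMIs) at 8 weeks over 0.0524 and 0.291 CPM, with ratios of 27.9 (9.36 to 112) and 23.1 (15.3 to 35.9). MEIOB stood at 2.27 over 1.68 CPM and at 4.61 over 0.140 CPM, a ratio of 1.35 (0.883 to 2.02) and then 32.8 (18.5 to 62.6). The background level of MEIOB thus differed between the libraries far more than its germ cell level. At 4 weeks tubule cells held MEIOB at 2.0 CPM, close to the background as a whole. DMC1, the meiosis-specific recombinase, stood at 1.54 CPM (21 UMIs) and 2.49 CPM (46 UMIs) over 0.380 and 0.762 CPM. Its ratios of 4.04 (2.19 to 7.34) and 3.27 (2.22 to 4.78) lay on either side of the limit with intervals that both contain it. In gated cells of a single class DMC1 stood at 2.66 and 3.09 CPM and was called in both libraries.

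The other 3 strand exchange genes were not called in the whole gate. HSF2BP, which brings BRCA2 to meiotic breaks, stood at 7.54 over 6.03 CPM at 4 weeks and 18.2 over 6.47 CPM at 8 weeks. The 8-week ratio of HSF2BP was 2.81 (2.46 to 3.21), and in gated cells of a single class it stood at 26.6 CPM and was called. MND1 and PSMC3IP, which together promote strand invasion, stood at 43.4 over 33.9 and 10.4 over 9.97 CPM at 4 weeks, and at 53.2 over 37.7 and 13.7 over 19.4 CPM at 8 weeks.

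MSH4 and MSH5 form a complex that stabilises crossover intermediates, and only MSH4 stood above somatic cells. MSH4 was at 9.51 and 8.08 CPM over 1.32 and 0.832 CPM, with ratios of 7.19 (5.50 to 9.42) and 9.71 (7.37 to 12.9). Against endothelial cells, at 2.46 CPM, the 4-week ratio was below 4-fold. MSH5 was at 2.41 and 3.03 CPM over 2.92 and 3.16 CPM, with ratios of 0.827 (0.555 to 1.20) and 0.961 (0.710 to 1.28).

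TEX15, a germ cell protein needed for repair of meiotic breaks and transposon silencing in mouse males, stood at 21.9 CPM (299 UMIs) at 4 weeks and 52.2 CPM (964 UMIs) at 8 weeks. Over backgrounds of 2.45 and 0.701 CPM its ratios were 8.93 (7.41 to 10.8) and 74.5 (58.4 to 96.3). Tubule cells held it at 7.1 CPM at 4 weeks, and endothelial cells at 0.148 and 0.254 CPM. TEX14, which keeps germ cells joined by intercellular bridges, stood at 56.1 and 33.9 CPM over 41.0 and 22.4 CPM. Macrophages held TEX14 at 277 and 125 CPM, above the germ cells in both libraries. Read by symbol alone, TEX14 therefore did not single out germ cells here.

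Of the 5 transcription factors of the oocyte, 3 were called at 4 weeks and 4 at 8 weeks. SOHLH1, which acts in early oocytes and also in spermatogonia, stood at 2.63 CPM (36 UMIs) at 4 weeks and 16.9 CPM (311 UMIs) at 8 weeks over 0.262 and 0.361 CPM. Its ratios were 10.1 (5.67 to 18.3) and 46.7 (33.0 to 67.9). SOHLH2, its partner in both sexes, stood at 1.76 and 8.78 CPM over 0.223 and 0.451 CPM, with ratios of 7.89 (4.06 to 15.6) and 19.5 (13.9 to 27.7). LHX8, a LIM homeobox factor of oocytes, stood at 3.07 CPM (42 UMIs) and 4.23 CPM (78 UMIs), while the whole background held 1 and 3 UMIs. The ratios of LHX8, 235 (39.9 to 9484) and 141 (46.4 to 697), have wide intervals for that reason.

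FIGLA and NOBOX, the other factors of oocytes, were near the limit of detection. FIGLA had 17 and 34 germ cell UMIs, 1.24 over 1.15 CPM and 1.84 over 0.461 CPM, and its 8-week ratio of 4.0 (2.49 to 6.36) lay at the limit. Sertoli cells held FIGLA at 4.07 and 3.53 CPM, above the germ cells, and in gated cells of a single class at 4 weeks it fell to 0.592 CPM (4 UMIs). NOBOX had 13 UMIs in 13 cells at 4 weeks and 7 UMIs in 7 cells at 8 weeks, 0.951 and 0.379 CPM. In these cells a count of 0 would allow a level of up to 0.219 and 0.163 CPM, from 3 counts.

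The map of levels by cell class shows which somatic cells carried genes of the set. TEX14 peaked in macrophages in both libraries, and SYCP1 in endothelial cells at 4 weeks. MND1 and MEI4 were spread over most classes. LHX8, MEIOC, RAD21L1 and SPO11 were at or under 0.442 CPM in every somatic class shown. Macrophages of the 8-week library held SPATA22 at 4.87 CPM (18 UMIs) and TEX12 at 1.89 CPM (7 UMIs).

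**Figure D2:**
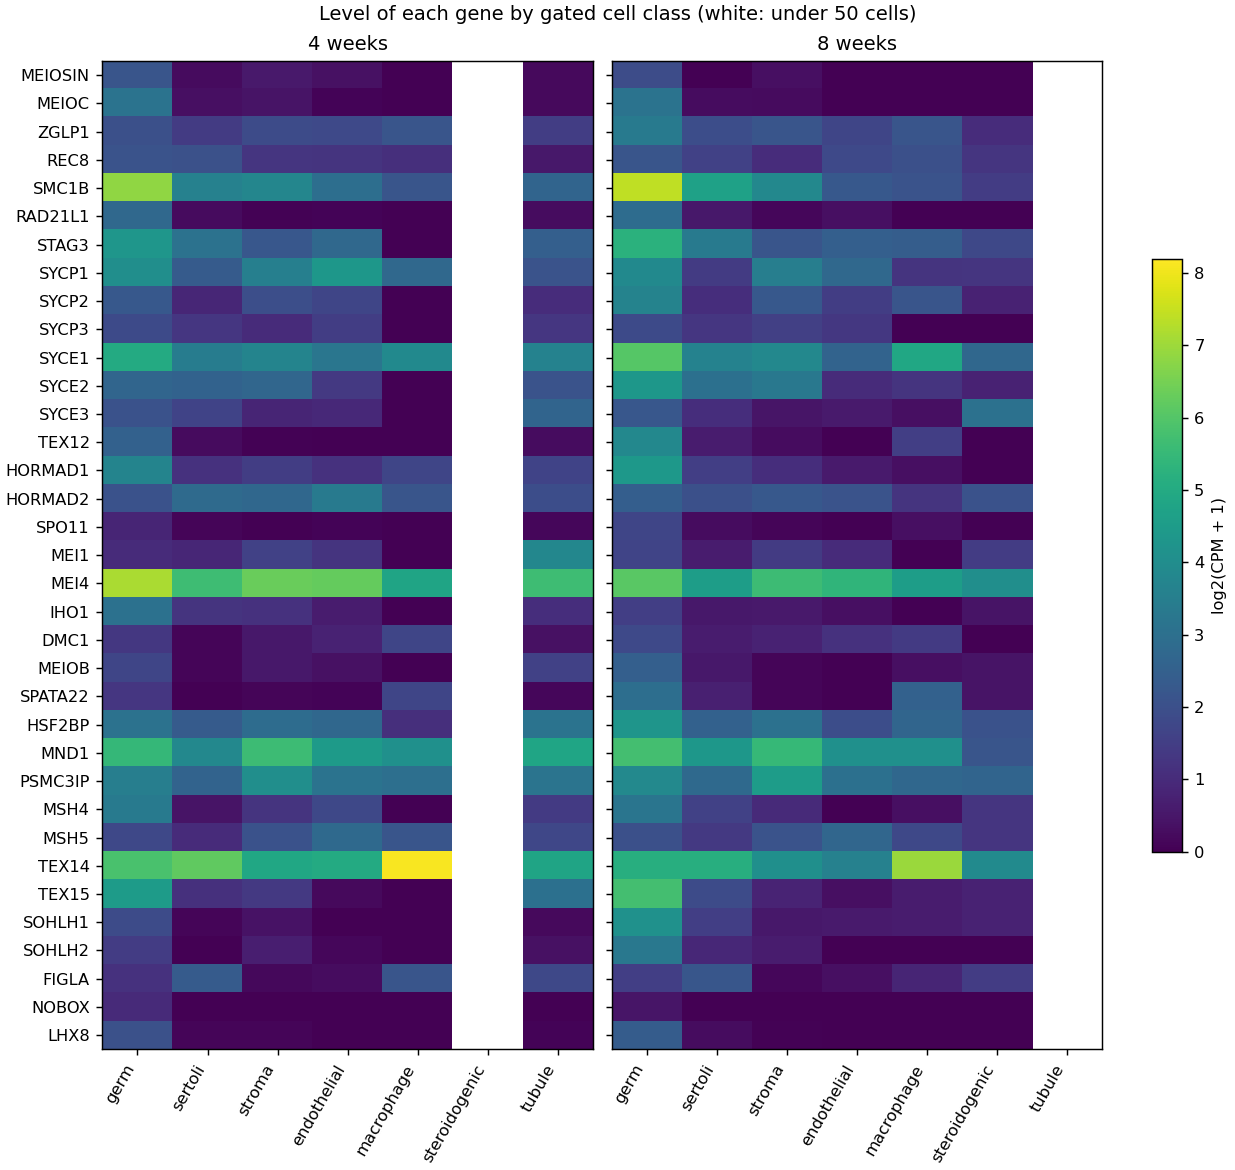
Level of each of the 35 genes in the germ gate and in cells that passed the gate of only 1 somatic class, as log2(CPM + 1) by colour, at 4 weeks (left) and 8 weeks (right), with classes of under 50 cells in white. The brightest somatic cell is TEX14 in macrophages, at 277 CPM at 4 weeks and 125 CPM at 8 weeks.

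Some of the somatic signal went with cell division. Somatic background cells thinned to 5000 UMIs were divided into those with at least 2 UMIs of 10 cycling genes (1841 and 2409 cells) and those with 0 (1972 and 2459 cells). MND1 stood at 70.1 CPM in the cycling and 6.59 CPM in the other cells at 4 weeks, a ratio of 10.6 (8.23 to 13.9), and at 69.4 and 7.56 CPM at 8 weeks, a ratio of 9.18 (7.40 to 11.5). SYCE2 stood at 7.17 and 1.42 CPM, then at 14.4 and 2.52 CPM, with ratios of 5.05 (2.81 to 9.74) and 5.73 (3.89 to 8.69). MEIOB stood at 3.8 and 0.710 CPM at 4 weeks, a ratio of 5.36 (2.34 to 14.3). PSMC3IP differed 3.48-fold and 2.60-fold, and SMC1B 2.81-fold and 4.35-fold. MEI4, HSF2BP and STAG3 were nearly even, with ratios from 0.769 to 1.35. At the same depth 80.0% and 75.3% of germ cells had at least 2 cycling UMIs, against 40.0% and 39.2% of the background, so a comparison of germ cells with background also compares cells that differ in division. The part of this in the germ cell ratios was not tested.

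Between the libraries, 13 of the 35 genes stood at least 2-fold higher in germ cells of the 8-week library, where 8% of all 18499 features did. These features had at least 20 UMIs summed over the germ cells of both libraries. At least 2-fold lower were 3 genes, where 10.4% of all features were. Over the 35 genes the log2 ratio of the 8-week to the 4-week level had a median of 0.55 (0.22 to 1.06), against -0.09 over all features.

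The highest ratios belonged to SOHLH1, at 6.40 (4.52 to 9.31), SOHLH2, at 5.0 (3.24 to 8.03), and SPATA22, at 4.59 (2.85 to 7.78). SYCE2 was 3.63-fold, SYCP2 3.08-fold, ZGLP1 3.07-fold, SPO11 2.83-fold and TEX12 2.72-fold higher. HSF2BP was 2.42-fold, TEX15 2.39-fold, MEI1 2.17-fold, SYCE1 2.09-fold and MEIOB 2.03-fold higher. By role these were 4 of 7 synaptonemal complex genes, 3 of 6 strand exchange genes, 2 of 4 break genes, 2 of 5 oocyte factors, ZGLP1 and TEX15. When each cell counted alike, the log2 ratio of MEI1 went from 1.08 to 0.17 and that of SOHLH2 from 2.30 to 1.68, while that of ZGLP1 went from 1.61 to 2.25. Some of the same genes were also higher in the somatic background of the 8-week library, with a log2 ratio there of 2.33 for SPATA22, against 2.17 in germ cells. That background ratio rests on few counts, 4 UMIs at 4 weeks and 29 at 8 weeks. The background ratio was 1.01 for TEX12 (5 and 14 UMIs), 0.99 for SOHLH2, 0.94 for SYCE2, 0.93 for SYCP2 and 0.77 for ZGLP1. For TEX15 the background ratio was -1.80, opposite to the germ cells.

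Other genes had ratios near 1. MEIOC had a ratio of 0.995 (0.767 to 1.29), SYCP3 of 0.995 (0.629 to 1.59), REC8 of 1.07 (0.721 to 1.6), RAD21L1 of 1.09 (0.816 to 1.47) and MEIOSIN of 0.788 (0.518 to 1.20). These intervals do not show equal levels, and for SYCP3 they reach 1.59-fold either way. Without the barcodes of another class gate the log2 ratio of REC8 went from 0.09 to 0.70. SMC1B and STAG3 were 1.52-fold (1.43 to 1.61) and 1.92-fold (1.66 to 2.23) higher at 8 weeks.

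Lower at 8 weeks were IHO1, 3.82-fold (2.57 to 5.79), MEI4, 2.11-fold (1.97 to 2.27), and NOBOX, 2.51-fold (0.930 to 7.42), whose interval includes no change. The IHO1 interval takes UMIs as independent, although 3 cells held 39.4% of them at 4 weeks and 57.1% at 8 weeks. Without the barcodes that passed another class gate, 15 genes were higher and 1, IHO1, was lower, where 10.4% and 8.46% of all features were. There the log2 ratio of IHO1 was -1.23, in place of -1.92, and that of MEI4 was -0.97, just inside 2-fold. Of the 13 higher genes 12 remained, with MEIOB lost and STAG3, HORMAD2 and FIGLA gained.

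**Figure D3:**
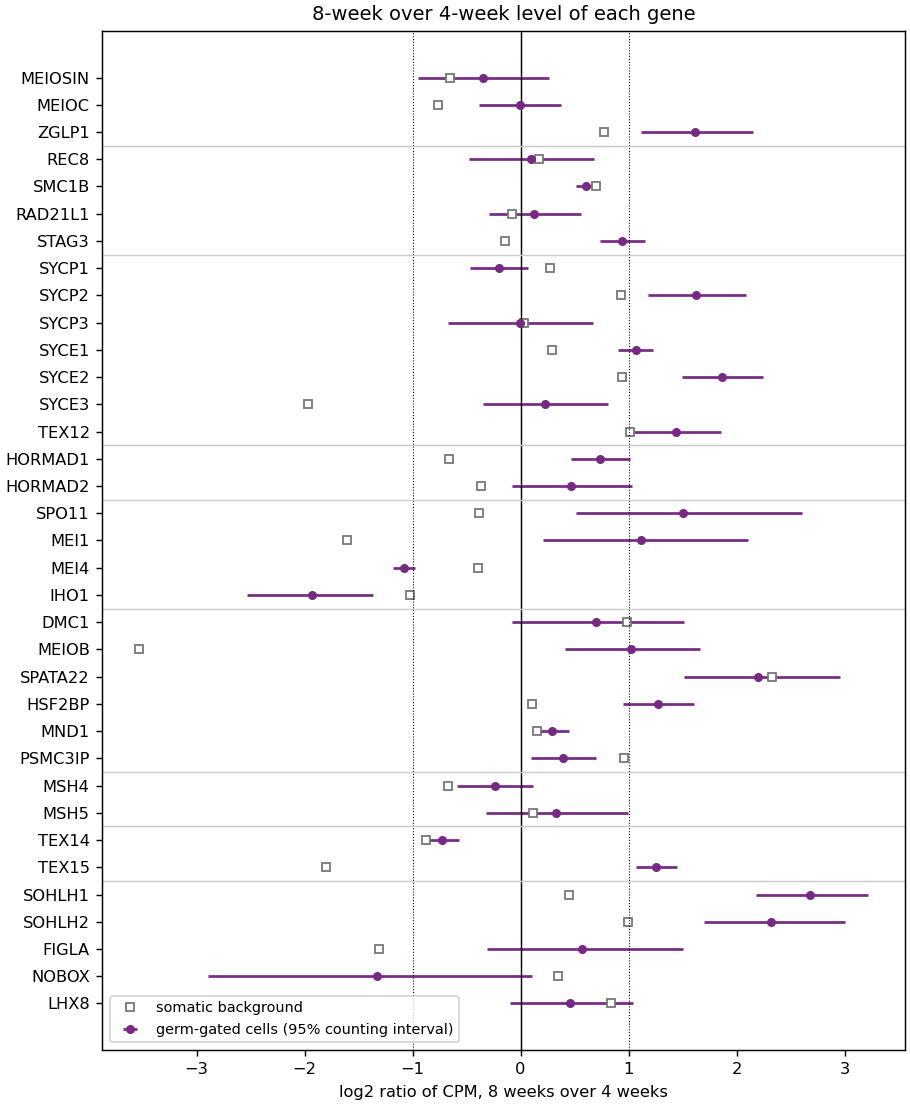
Ratio of the 8-week over the 4-week level of each of the 35 genes on a log2 axis, in germ-gated cells (filled circles with exact 95% counting intervals) and in the somatic background (open squares), with dotted lines at 2-fold. The SOHLH1 point lies farthest right, at 2.66, and the IHO1 point farthest left, at -1.92.

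Most of these genes were caught in few cells. To compare shares, each cell was thinned to 5000 UMIs, which kept 519 and 842 germ cells and left out 81 and 197 shallower ones. Endothelial cells (983 and 231 kept, median depth 7519 and 6155 UMIs before thinning, against 18224 and 13930 in germ cells) served as the somatic comparison. They were not free of the genes, and at 4 weeks held MEI4 at 76.6 CPM and SYCP1 at 19.3 CPM. SMC1B was seen in 37.8% (33.6 to 42.1) of germ cells at 4 weeks and 51.2% (47.8 to 54.6) at 8 weeks, against 3.56% and 2.16% of endothelial cells. Without thinning it was seen in 70.8% of germ cells in each library.

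SYCE1 was seen in 16.2% and 26.8% of germ cells, against 3.26% and 2.16% of endothelial cells. TEX15 was seen in 8.48% and 21.5%, against 0.102% and 0% (0 of 231 cells, which allows up to 1.30%). STAG3 was seen in 8.29% and 16.2%, against 2.95% and 1.73%. These 4 genes were above the endothelial share in both libraries. SYCP1 was seen in 3.08% (1.77 to 4.96) of germ cells at 4 weeks, against 9.66% of endothelial cells and 3.59% of the somatic background. Its share there was above neither. SYCP3 was seen in 1.54% and 1.07% of germ cells against 0.814% and 0.866%, which at this depth cannot be told from background. Without thinning the germ cell shares were 43.5% and 52.6% for SYCE1, 26.3% and 35.8% for TEX15, 28.8% and 35.3% for STAG3, and 5.0% and 3.95% for SYCP3.

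Cells that carried many of the genes together were more frequent in the 8-week library. At 5000 UMIs the median germ cell held 2 of the 35 genes at 4 weeks and 3 at 8 weeks, with a highest count of 8 and 12. At least 5 genes were seen in 34 germ cells at 4 weeks, 6.55% (4.58 to 9.03), and in 160 at 8 weeks, 19.0% (16.4 to 21.8). In endothelial cells this was 3 cells, 0.305%, and 0 cells. In gated cells of a single class the shares were 9.47% and 25.7%. None of the 35 genes was seen in 11.0% and 10.1% of germ cells, against 42.3% and 64.1% of endothelial cells. At least 10 genes were seen in 0 and 6 germ cells.

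**Figure D4:**
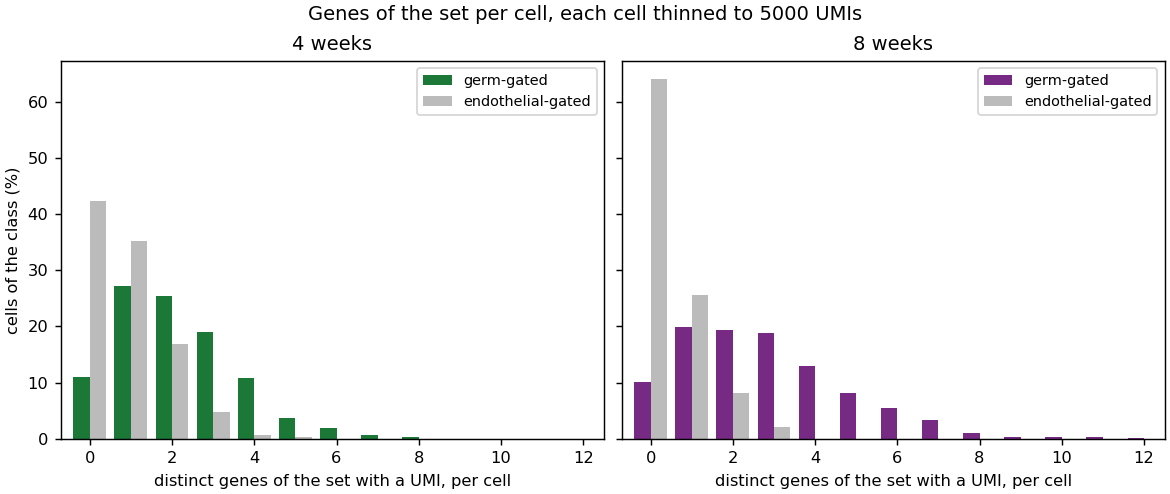
Share of germ-gated cells (coloured bars) and endothelial cells (grey bars) by the number of the 35 genes with a UMI in the cell, after thinning each cell to 5000 UMIs, at 4 weeks (left) and 8 weeks (right). The germ cells of the 8-week library reach 12 genes and those of the 4-week library 8.

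By role, at least 2 different meiotic cohesin genes were seen in 5.20% of germ cells at 4 weeks and 13.8% at 8 weeks. At least 2 synaptonemal complex genes were seen in 2.31% and 9.03%, and at least 2 strand exchange genes in 2.70% and 7.13%. In endothelial cells these shares were 0.203% and 0% for cohesin, 0.916% and 0% for the synaptonemal complex, and 1.63% and 1.30% for strand exchange. Oocyte transcription factors were seen together in 0.385% and 1.43% of germ cells.

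The germ cells were then divided by whether a UMI of DAZL, MAEL or DDX4 remained after thinning. These were 204 of 519 cells at 4 weeks, 39.3% (35.1 to 43.7), and 561 of 842 at 8 weeks, 66.6% (63.3 to 69.8). Before thinning, cells with such a UMI were not deeper, with a median of 20718 against 22305 UMIs at 4 weeks and 16689 against 20665 at 8 weeks. At least 5 of the 35 genes were seen in 24.1% (20.6 to 27.8) of the cells with and 8.90% (5.84 to 12.9) of the cells without at 8 weeks. At 4 weeks the shares were 9.80% (6.09 to 14.7) and 4.44% (2.45 to 7.34).

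In the 8-week library TEX15 stood at 77.7 CPM in cells with a UMI of the 3 genes and 17.8 CPM in cells without, a ratio of 4.37 (2.88 to 6.90). SYCP2 stood at 15.7 and 2.85 CPM, a ratio of 5.51 (2.01 to 21.1), and MEIOC at 13.2 and 2.85 CPM, a ratio of 4.63 (1.66 to 17.9). HSF2BP, SOHLH1 and TEX12 differed 3.13-fold, 2.92-fold and 2.84-fold, and STAG3 and SMC1B 2.40-fold and 2.26-fold. Other genes did not follow this division. TEX14 stood at 33.9 and 39.1 CPM, SYCE2 at 20.3 and 18.5 CPM and PSMC3IP at 13.9 and 19.9 CPM. Among genes with little somatic signal, RAD21L1 stood at 7.49 and 8.54 CPM, MEIOB at 6.06 and 6.41 CPM, and IHO1 at 1.78 and 4.27 CPM (5 and 6 UMIs).

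At 4 weeks the division left fewer UMIs and wider intervals. SMC1B stood at 129 and 86.3 CPM, a ratio of 1.5 (1.17 to 1.92), and TEX15 at 25.5 and 17.1 CPM, with an interval of the ratio from 0.834 to 2.65. SOHLH1 had 11 UMIs in the cells with and 1 in the cells without, a ratio of 17.0 (2.47 to 731). The gate markers NANOG and POU5F1 were also higher in the cells with at 4 weeks, with ratios of 1.35 (1.17 to 1.57) and 1.14 (1.04 to 1.25). At 8 weeks their ratios were 0.903 (0.799 to 1.02) and 0.828 (0.752 to 0.913). Whether the 4-week SMC1B difference goes with that of the gate markers was not tested. Within the cells with a UMI of DAZL, MAEL or DDX4, the log2 ratio of the 8-week to the 4-week level had a median of 0.69 over 22 genes. Within the cells without it was 0.16 over 13 genes. A gene needed at least 20 UMIs within the cells of that kind, so the 22 and 13 genes are not the same set. Genes such as SYCP2, TEX12 and MEIOC enter only the first median, and the medians therefore cannot be compared.

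**Figure D5:**
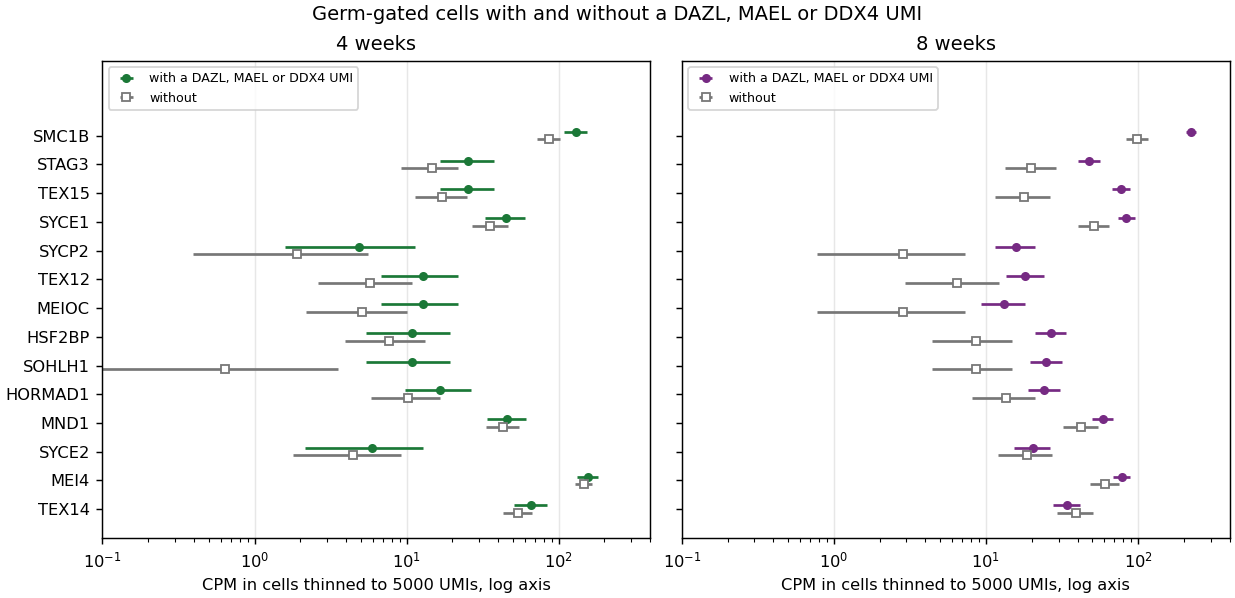
Level of 14 of the genes in germ-gated cells with (filled circles) and without (open squares) a UMI of DAZL, MAEL or DDX4, in CPM on a log axis with exact 95% counting intervals, from cells thinned to 5000 UMIs, at 4 weeks (left) and 8 weeks (right). TEX15, at 77.7 and 17.8 CPM at 8 weeks, is well separated, and TEX14 is not.

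Further meiotic genes outside the set gave a similarly mixed picture. Of 26 tested, 8 were called at 4 weeks and 8 at 8 weeks, where 6.12% and 8.51% of all features were. REC114, a break factor that binds MEI4, stood at 40.6 and 85.3 CPM over 0.445 and 1.02 CPM, with ratios of 91.2 (64.5 to 133) and 83.4 (68.2 to 103). ANKRD31, a partner of REC114, stood at 16.2 and 27.1 CPM over 0.380 and 0.561 CPM. TEX11, a crossover protein encoded on the X chromosome, was called at 4 weeks only, at 38.5 over 7.47 CPM, and stood at 15.1 over 5.75 CPM at 8 weeks. RNF212, a crossover ligase, stood at 18.4 over 4.14 CPM and 26.9 over 7.21 CPM and was called at 4 weeks only.

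M1AP and CCNA1, the latter a cyclin of male meiosis, were called in both libraries, at 12.0 and 10.2 CPM at 4 weeks. RNF212B, at 12.7 CPM, and ZCWPW1, a histone reader at meiotic breaks, at 12.0 CPM, were called at 8 weeks only. STRA8, the inducer of meiosis and partner of MEIOSIN, stood at 7.90 over 1.81 CPM and 6.45 over 1.52 CPM, with ratios of 4.37 (3.37 to 5.66) and 4.23 (3.30 to 5.42). Like MEIOSIN, STRA8 was not at a higher level at 8 weeks, with a ratio of 0.816 (0.624 to 1.07). The 8 over 4 week median of this list was 0.37 over 23 genes.

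Of 9 tested genes of growing oocytes, 1 was called at 4 weeks, where 6.12% of all features were. It was NLRP5, with 12 UMIs that all came from 1 cell. At 8 weeks 3 of 10 were called, where 8.51% of all features were. They were TP63 at 4.99 CPM (92 UMIs), TLE6 at 1.19 CPM (22 UMIs) and KHDC3L at 0.596 CPM (11 UMIs). KHDC3L thus lay under 20 germ cell UMIs, where depth limits a level, and TLE6 just above. The median log2 ratio of the tested genes over background was 1.02 and 0.90, against -0.04 and 0.01 over all features. TAF4B, a transcription factor subunit of germ cells, stood at 55.2 over 25.3 CPM and 28.9 over 12.0 CPM. ZP2, of the egg coat, stood at 20.4 and 15.5 CPM in the whole gate but at 0.592 and 2.1 CPM in gated cells of a single class. TAF4B and ZP2 are named after their values were seen. BMP15, ZP3 and OOSP2 had 0 UMIs in germ cells of either library. Of 4 tested genes of fetal male germ cells, 3 were called at 4 weeks and 2 at 8 weeks, against the same 6.12% and 8.51%. TDRD9, of the piRNA pathway, stood at 41.9 and 40.1 CPM over 2.97 and 2.18 CPM. PIWIL4, which guides silencing of transposons in fetal male germ cells, stood at 4.24 and 14 CPM over 0.196 and 0.381 CPM. DNMT3L, a cofactor of DNA methylation, was called at 4 weeks with 15 UMIs, and NANOS2 had 0 UMIs in germ cells.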

How the data were processed

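The deposited values are UMI counts, whole numbers per feature and cell barcode and not normalized. Cell Ranger appears as version 7.1.0 per the file headers but as 2.1.1 in the submitters' processing notes. A DNBelab C kit is named in the labels, although the barcodes look like those of Cell Ranger. What genome build and annotation the authors used, and whether introns were counted, is not given in the sources used here. A RefSeq gene table of the donkey served for names only.

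Cells with at least 200 genes were kept. No doublet caller was run, and barcodes that passed another class gate (at least 4 markers and 10 marker UMIs per 10000) were left out as an alternative. UMIs were summed over cells as CPM with exact Poisson intervals, ratios carry exact conditional binomial intervals and shares Clopper-Pearson intervals. Medians over genes carry order-statistic intervals. Log2 ratios had 0.5 UMI added to each sum. Thinning used seed 1. Features under 20 UMIs were not called. The scripts (Python 3.11.15, numpy 2.4.6, scipy 1.17.1, pandas 2.3.3) were tested on simulated data.

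Alternatives changed the germ gate, the background, the cell and feature filters, the UMI added, the weighting of cells and the thinning. Full values are given for genes with at least 20 germ cell UMIs and at least 4-fold over background in a library, and for up to 6 such genes of each other list by level. The genes and lists were chosen with earlier results of these data known.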

Additional observations from a re-analysis of the deposited data

How the results depend on the processing

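With a filter of 100 UMIs, 7 of 25 genes were at least 4-fold over background at 4 weeks. That filter leaves each ratio as it was and only takes out genes with few UMIs. No share over all features is given for it, so this count cannot be set against the earlier one. Without barcodes of another class gate, 16 genes were called at 4 weeks and 23 at 8 weeks, which included all 15 and 19 called before. In that setting 7.83% and 10.3% of all features were called. Genes at least 2-fold lower at 8 weeks went from 3 to 1 there, and the share of all features from 10.4% to 8.46%. Against endothelial cells 13 and 21 were called, where 13.1% and 13.5% of all features were, with DMC1, MSH4 and STAG3 lost at 4 weeks. The log2 ratio of NOBOX over the stages turned from -1.28 to 0.13 when each cell counted alike. The median share of germ cells with a UMI of a gene went from 2.31% to 0.501% at 1000 UMIs and 7.0% unthinned at 4 weeks, and from 4.39% to 0.773% and 11.2% at 8 weeks. The median number of genes per cell went from 2 and 3 to 0 and 0 at 1000 UMIs. Restriction to 32 deposited symbols and to cells with a DAZL, MAEL or DDX4 UMI was chosen after seeing the data. No paired analysis was possible because each stage is 1 library. Depth limits genes under about 20 germ cell UMIs, which are 1.46 and 1.08 CPM.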
